A study of Mus musculus with 24 samples.

Results

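Integrins are the receptors with which cells hold on to the matrix around them, and the genes described here are their subunits together with the laminin chains and the other adhesive proteins they bind. The members were all genes whose symbols name an integrin alpha or beta subunit or a laminin chain. Fn1, Vtn, Nid1, Nid2, Hspg2, Agrn and Dag1 were added. The rule reads symbols alone, but it was chosen with earlier results of these data known. The paper names fibronectin and vitronectin among the matrix genes upregulated after injury. Proteins that only bind an integrin's tail (the Itgb1bp genes and Itgb3bp) were left out, and Itgbl1, a secreted protein with integrin-like repeats that is not a subunit, came in by its name. Of 17097 genes named on the ependymal arrays 39 were members, and of 22180 genes named on the neurosphere arrays 44 were. In all 45 genes were read, 38 of them on both array types. Itga11, Itgad, Itgb8, Lama4, Lama5 and Nid2 were not analysed here for the ependymal region, nor Itga10 for neurospheres.

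The study followed the cells that line the central canal of the adult mouse spinal cord after injury, and neurospheres, free-floating clusters of stem and progenitor cells grown from that tissue. The injured group held 6 CD1 mice aged 3 months with needle insertions through the exposed thoracic cord, and the sham group held 6 other mice of the same strain and age with laminectomy alone. The central canal region was cut out with a laser 3 days after surgery, so each array holds the RNA of whatever cells lay in that area. Neurospheres came from the adult spinal cord of mice, with 4 cultures, numbered by mouse, in each of 3 conditions. In the first, spheres grew with EGF, FGF2 and heparin (with EF). In the second they were dissociated, plated on coverslips coated with poly-D-lysine and laminin and kept for 3 days without growth factors in 2% fetal bovine serum (w/o EF). In the third such plated cells were then given EGF, FGF2 and heparin for 3 days after the serum was removed (re EF). Removal of the growth factors thus came together with attachment to laminin, dissociation, serum and loss of heparin, which cannot be told apart here. The w/o EF and re EF cells had both been plated on laminin. Return of the growth factors came together with heparin, removal of serum and 3 more days in culture, which cannot be told apart either. Values are log2 signals, so that equal differences are equal ratios. They can be compared between arrays of a type for the same gene, but not between genes or array types.

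Each integrin is a pair of an alpha and a beta subunit that spans the membrane, binds matrix or another cell outside and couples to actin through adaptors such as talin, kindlin and integrin-linked kinase inside. Subunits that recognise the peptide RGD (Itgav, Itga5, Itga8 and their beta partners) bind fibronectin and vitronectin, another group (Itga3, Itga6, Itga7, Itgb4) binds laminins, another (Itga1, Itga2, Itga10, Itga11) binds collagens, and Itgb2 and Itgb7 with their alpha partners serve leukocytes. Laminins are cross-shaped trimers of an alpha, a beta and a gamma chain that form the basement membrane with type IV collagen, nidogens, perlecan (Hspg2) and agrin. Dystroglycan (Dag1) is a laminin and agrin receptor outside the integrin family.

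Of the members, 30 genes had a promoter in the table used, with 35 start sites, and the 250 bases before the start are shown for 4 receptors, from RefSeq on build GRCm38.p6, 5′ to 3′ on the strand of the gene. Itga1 and Itgb5 are shown because they were higher w/o EF and re EF than with EF, and Itga4 and Itga5 because they were lower w/o EF than with EF and higher re EF than w/o EF. Capitals mark matches, on either strand, to the GC box GGGCGG read by Sp factors or to the SMAD element CAGACA.
Itga1, chr13:115101965-115102214, minus strand: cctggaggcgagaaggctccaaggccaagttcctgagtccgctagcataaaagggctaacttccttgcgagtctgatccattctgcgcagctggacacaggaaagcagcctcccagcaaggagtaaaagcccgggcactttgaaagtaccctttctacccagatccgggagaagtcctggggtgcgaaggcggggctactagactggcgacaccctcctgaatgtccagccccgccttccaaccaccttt
Itgb5, chr16:33829415-33829664, plus strand: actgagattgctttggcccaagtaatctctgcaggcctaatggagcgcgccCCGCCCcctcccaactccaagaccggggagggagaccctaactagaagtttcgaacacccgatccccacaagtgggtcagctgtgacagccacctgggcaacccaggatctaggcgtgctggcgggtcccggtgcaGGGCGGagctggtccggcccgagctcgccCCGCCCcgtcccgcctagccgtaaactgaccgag
Itga4, chr2:79255176-79255425, plus strand: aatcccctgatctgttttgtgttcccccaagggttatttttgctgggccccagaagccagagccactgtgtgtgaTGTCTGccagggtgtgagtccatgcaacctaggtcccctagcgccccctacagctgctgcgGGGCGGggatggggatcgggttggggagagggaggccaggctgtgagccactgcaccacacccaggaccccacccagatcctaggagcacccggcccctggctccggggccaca
Itga5, chr15:103366792-103367041, minus strand: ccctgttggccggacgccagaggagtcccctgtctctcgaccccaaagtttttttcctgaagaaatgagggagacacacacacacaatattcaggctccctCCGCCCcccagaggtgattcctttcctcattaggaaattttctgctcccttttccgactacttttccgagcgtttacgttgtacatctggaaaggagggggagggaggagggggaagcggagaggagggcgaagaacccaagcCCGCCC
The Itgb5 window held 3 GC boxes, with first bases at -199, -63 and -34 from the start, the Itga5 window 2 (-149 and -6), and the Itga4 window 1 (-114) with a SMAD element at -175. No match to these letters lay in the Itga1 window, and none of the 4 windows held the AP-1 motif TGANTCA, the TEAD motif GGAATG, the ETS motif CCGGAA, which can share its last letters with the TEAD motif, or a CArG box. Over all 32851 windows of this length 32.7% held the GC box, 17.1% the SMAD element, 12.6% the TEAD motif, 12% the ETS motif, 6.75% the AP-1 motif and 1.47% the CArG box. Of the 35 member windows 16 held the GC box, 9 the SMAD element, 5 the TEAD motif, 2 the ETS motif, 1 the AP-1 motif and 2 the CArG box. These matches are descriptions of sequence, not of binding.

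In the ependymal region the arrays fell into 3 sets, mice 1 and 2, 3 and 4, and 5 and 6 of both groups, whose lower quartile of signal was 4.38 to 4.41, 4.11 to 4.18 and 3.96 to 4.02 log2. The labels name no batch, and values with the set as a block are given beside the plain fit. The mean over 12 ependymal marker genes was 9.04 to 9.35 in injured mice and 9.66 to 10.08 in sham mice. Sham 3, sham 4, sham 6 and injured 6 had the highest skeletal muscle signal (8.03 to 9.39 against 4.94 to 6.38 on the other arrays), and sham 3, 4 and 6 and injured 3 and 4 the highest neutrophil marker mean (9.71 to 10.67 against 5.12 to 7.17). Over all genes limma called 2.91% higher and 1.87% lower after injury at an adjusted p under 0.05, and 12% and 13.1% with the set as a block. With each array centred on its median 405 genes were higher and 393 lower, against 497 and 320 without centring.

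Of the 39 members 5 rose after injury and none passed the test in the other direction: fibronectin, vitronectin, agrin, the fibronectin and vitronectin receptor subunit Itgav and the laminin receptor subunit Itgb4. That is 12.8% of the members against 2.91% of all genes, and the median difference over the members was 0.15 log2 against 0.02 over all genes. By class, 3 of 5 ligands, 2 of 24 integrin subunits and 0 of 8 laminin chains were called, and neither Dag1 nor Itgbl1. The ligands Fn1, Vtn and Agrn were added by name with earlier results known, so the share is no independent test. Lama3 alone was lower at an unadjusted p under 0.05 in limma, and it also passed with the set as a block. With that block 13 members rose and 1 fell. Without the 4 arrays of highest muscle signal 4 rose, Fn1, Itgav, Agrn and Itgb2, where 1.90% of all genes did, and 9 with the block as well, where 10.4% did. These 9 add Itgb2 and Nid1 to the blocked calls and lack Vtn, Lamc1, Itgb5, Itgb1, Dag1 and Itgax. More cells of a type and more RNA per cell cannot be told apart in these samples. The replicate number as a block, which joins different mice, gave 14 higher and 0 lower (9.68% and 11.4% of all genes). Groups did not overlap for 6 members, all higher in injured mice, where 2.88% of all genes were so separated upward and 1.54% downward.

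Among the ligands, Fn1 encodes fibronectin, which cells assemble into fibrils through RGD-binding integrins. Its lowest, median and highest log2 signals were 9.60, 10.12 and 10.79 in injured mice, against 6.15, 7.16 and 8.18 in sham mice. All injured values lay above all sham values, and the 3 sham values above 7.5 were those of the muscle-rich arrays sham 3, 4 and 6. Without the 4 muscle-rich arrays the difference was 3.72 log2 (adjusted p = 5.2e-04) in place of 2.92 (adjusted p = 5.4e-04). Vtn, vitronectin, a plasma and matrix protein bound by Itgav with Itgb3 or Itgb5, had 7.16, 7.90 and 8.81 in injured mice, against 6.53, 6.85 and 7.10 in sham mice. Its groups did not overlap, the closest values being those of injured 2 and sham 3. The difference of 1.15 log2 (adjusted p = 0.025) no longer passed with median centring (0.078), with quantile normalization (0.050), without the muscle-rich arrays (0.18) or without sham 2, 4 or 6 or injured 1 (0.050 to 0.059), and a second probe set of the gene differed by 0.65 (adjusted p = 0.18).

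Agrn encodes agrin, a heparan sulphate proteoglycan of basement membranes that binds laminin and dystroglycan. It had 8.51, 8.92 and 9.10 in injured mice, against 7.56, 8.04 and 8.15 in sham mice. The groups stood apart, and mice 5 and 6 were the lowest of both. The rise was 1.90-fold (0.92 log2, standard error 0.14, adjusted p = 0.0025), with 0.98, 0.85 and 0.95 within the sets. A second Agrn probe set, at a mean signal of 3.76 log2, differed by 0.10, and the mean of both rose by 0.51 (adjusted p = 0.043). The other basement membrane linkers gave no such difference. Perlecan (Hspg2) had 6.91 to 7.87 in injured and 6.88 to 7.75 in sham mice, with a 95% interval of the difference of -0.44 to 0.44, and nidogen 1 (Nid1) had 6.01 to 8.38 and 5.96 to 7.23 (-0.43 to 1.49), with injured 1 and 2 the only values above 8.

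None of the 8 laminin chains measured passed the test in the plain fit, and 3 passed with the set as a block. Lamc1, the gamma chain of most laminins, had 7.16, 7.24 and 7.98 in injured mice, against 6.02, 6.63 and 6.99 in sham mice. The groups did not overlap, and injured 3 was well above the other injured mice. Its difference was 0.75 log2, with an adjusted p of 0.061 in the plain fit, 0.0099 with the set as a block and 0.17 with the block and without the muscle-rich arrays. A second Lamc1 probe set differed by 0.38 (adjusted p = 0.69), and the mean of both by 0.56 (0.039). Lama1, an alpha chain of embryonic and meningeal basement membranes, had 4.67, 4.93 and 5.59 in injured and 4.24, 4.52 and 4.82 in sham mice, which overlap (0.48 log2, adjusted p = 0.16, or 0.0090 with the block). Lama3, an alpha chain best known from epithelia, went the other way, with 6.21, 6.95 and 7.42 in injured mice, against 7.29, 7.49 and 8.50 in sham mice. The groups overlapped through mice 5 and 6, and the differences were -1.40, -0.95 and -0.07 within the sets (-0.80 in all, adjusted p = 0.12, or 0.033 with the block). A second Lama3 probe set, at a mean signal of 4.60, differed by 0.01. The other chains (Lama2, Lamb1, Lamb2, Lamb3 and Lamc3) had differences of -0.05 to 0.40, and Lamb3 was under the lower quartile of its array on 8 of 12 arrays.

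Itgav, the alpha subunit that pairs with several beta subunits to bind fibronectin, vitronectin and latent TGF-beta, was the most clearly separated receptor. It had 11.45, 11.54 and 11.67 in injured mice, against 9.84, 10.34 and 10.42 in sham mice. The injured mice lay close together (SD 0.08, n = 6, against 0.22 in sham mice), and the gap to the highest sham mouse was wider than the spread of either group. The rise was 2.47-fold (1.31 log2, standard error 0.11, adjusted p = 3.9e-05) and 1.21, 1.32 and 1.39 within the sets. A dimmer probe set of Itgav rose by 1.19 (adjusted p = 0.026), and 3 others with a mean signal under 4 log2 differed by -0.09 to 0.04. The mean of its 5 probe sets rose by 0.48 (adjusted p = 0.022). Of the partners of Itgav, Itgb5, a vitronectin receptor subunit, had 9.21, 9.62 and 9.94 in injured and 9.04, 9.23 and 9.64 in sham mice and Itgb1, the beta subunit shared by most alpha subunits, 8.31, 8.79 and 9.82 in injured and 7.29, 8.59 and 8.85 in sham mice. Both overlapped between groups. Their differences of 0.34 and 0.61 log2 did not pass in the plain fit (adjusted p = 0.35 and 0.58) and passed with the set as a block (0.026 and 0.016). The second brightest probe set differed by 0.24 for Itgb5 (adjusted p = 0.62, or 0.10 with the block) and by 0.73 for Itgb1 (0.092, or 0.0061 with the block), and the mean of all Itgb1 probe sets differed by 0.30. Itga8, an RGD-binding partner of Itgb1, had 3.88, 4.69 and 5.55 in injured and 3.59, 3.86 and 4.57 in sham mice, overlapping between sets but not within any set (0.68, adjusted p = 0.0025 with the block and 0.37 without). It was under the lower quartile of its array on 2 of 6 injured and 5 of 6 sham arrays, so the size of its difference is uncertain, and a dimmer probe set of the gene differed by 0.04. Itga5, the fibronectin receptor subunit, was under the lower quartile of its array on all 12 arrays, and Itgb6 differed by 0.13 (-0.28 to 0.55).

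**Figure D1:**
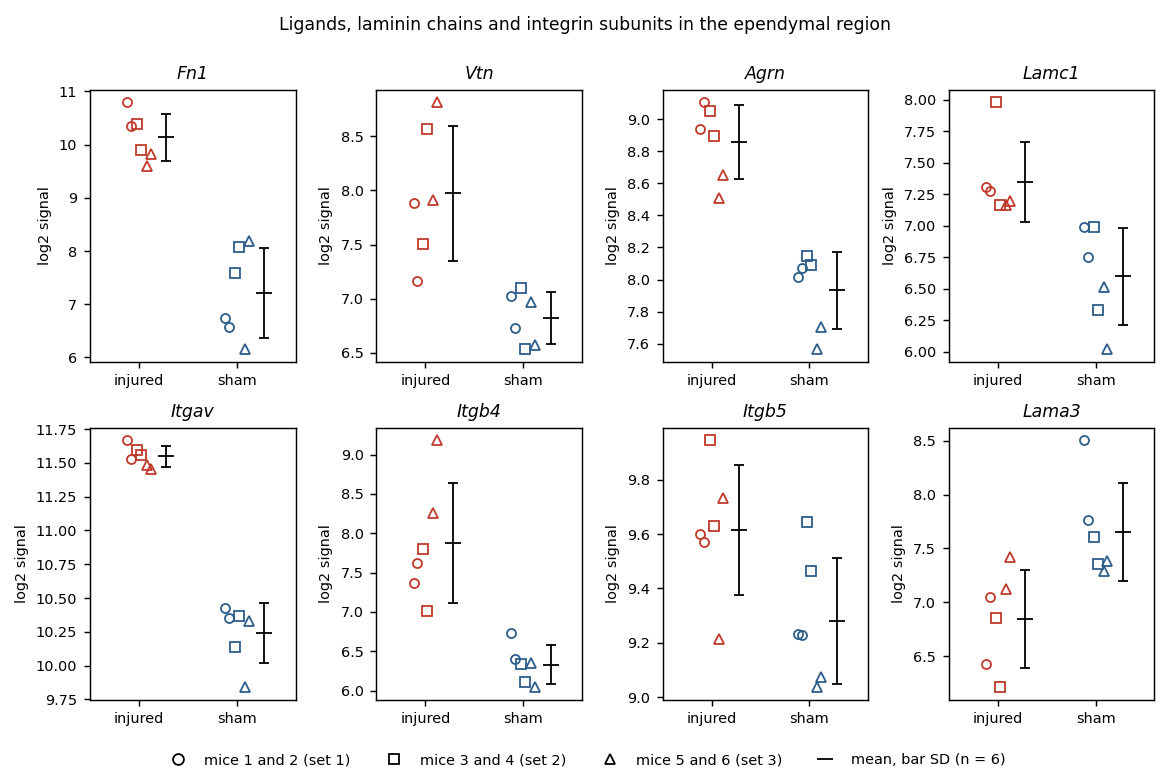
Log2 signal of 8 members per array (y axes), injured mice in red on the left and sham mice in blue on the right of each panel, with the symbol giving the set of arrays and the black bar the mean and SD of 6 mice. Fn1, Vtn, Agrn, Lamc1, Itgav and Itgb4 show no overlap between groups, whereas Itgb5 and Lama3 overlap.

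Among the laminin-binding subunits, Itgb4, the partner of Itga6 that anchors epithelial cells to laminin in hemidesmosomes, had 7.01, 7.71 and 9.18 in injured mice, against 6.04, 6.34 and 6.74 in sham mice. All injured values were higher, and injured 6, at 9.18, was the highest. The rise was 2.92-fold (1.54 log2, standard error 0.30, adjusted p = 0.012), with 0.93, 1.18 and 2.52 within the sets, and 1.12 (adjusted p = 0.077) without the muscle-rich arrays, of which injured 6 is one. With the set as a block and without those arrays Itgb4 passed. Itga6 itself had 6.72, 7.47 and 9.17 in injured and 5.47, 6.87 and 7.56 in sham mice. These overlap, and the difference of 0.96 did not pass in the plain fit (adjusted p = 0.44) or with the set as a block (0.071). A second Itga6 probe set of like brightness (mean signal 7.14 against 7.18 log2) differed by 0.78 and passed with the block (adjusted p = 0.035, against 0.18 without). Itga3 differed by 0.20 (95% interval -0.16 to 0.55), and Itga7 was under the lower quartile on all arrays. The collagen receptor subunit Itga1 was dim, with 4.20, 4.31 and 4.76 in injured and 3.66, 3.92 and 4.33 in sham mice, and its difference of 0.43 passed with the set as a block (adjusted p = 7.8e-04, 0.17 without). It was under the lower quartile of its array on all 6 sham arrays and on 0 of the injured ones, so the size of its difference is uncertain. Dag1, at 10.20, 10.45 and 10.60 in injured and 9.82, 10.12 and 10.36 in sham mice, differed by 0.35 (adjusted p = 0.0055 with the block, 0.19 without, and 0.11 with the block and without the muscle-rich arrays).

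**Figure D2:**
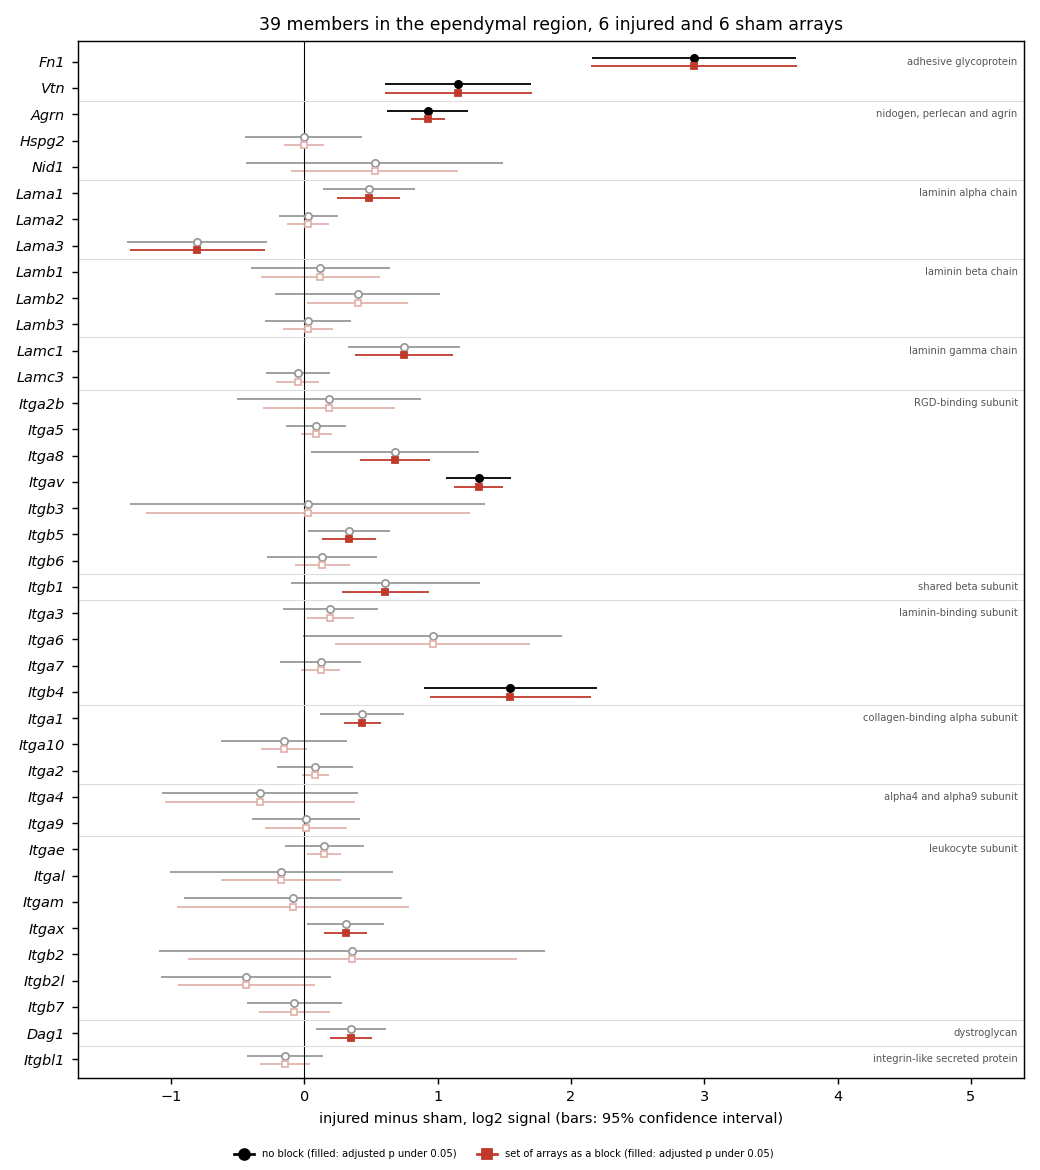
Difference between injured and sham mice in log2 signal (x axis) for the 39 members (y axis, grouped by role), with 95% confidence intervals, from the plain limma fit (circles) and with the set as a block (squares). Filled symbols passed the adjusted p of 0.05. 5 members are filled in the plain fit, all to the right of 0, and 14 with the block, of which Lama3 lies to the left.

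Of 7 leukocyte subunits none passed the test in the plain fit. Itgb2, the beta subunit of all leukocyte-specific integrins with Itgal, Itgam and Itgax, had 8.18, 7.72, 8.37, 8.42, 7.23 and 7.60 in injured 1 to 6, against 5.92, 5.89, 8.76, 9.43, 6.06 and 9.31 in sham 1 to 6. Sham 3, 4 and 6 lay above every injured mouse and sham 1, 2 and 5 below every one, and the difference was 0.36 log2 with a 95% interval of -1.09 to 1.81 (adjusted p = 1.00). It was 2.05, -0.69 and -0.27 within the sets, and 2.03 (adjusted p = 0.0084) without the 4 muscle-rich arrays, which include sham 3, 4 and 6. Itgal, with Itgb2 the receptor for ICAMs, reached 6.48 to 7.47 in sham 3, 4 and 6 and 6.56 to 7.07 in injured 3 and 4, against 5.37 to 5.92 on the others. Itgb7 had 4.24 to 4.95 in injured and 4.09 to 4.88 in sham mice, Itgae 3.83 to 4.50 and 3.72 to 4.22, and Itgb2l 4.80 to 5.77 and 4.98 to 6.51, all overlapping. Itga4, the VCAM receptor subunit of lymphocytes and monocytes, which is not among the 7, was highest in sham 4 (6.55) and sham 6 (6.74), and Itgam, of myeloid cells, in sham 6 (6.41) and injured 1 (5.95). Itga2b, the platelet fibrinogen receptor subunit, was 6.45 to 8.28 in injured and 6.68 to 8.02 in sham mice, and its partner Itgb3 5.26 to 8.01 and 5.60 to 8.48. With all arrays kept, Itgax, of dendritic cells and activated microglia, was the leukocyte subunit that passed a test, with 5.55, 6.08 and 6.28 in injured and 5.49, 5.69 and 5.88 in sham mice (0.31 log2, adjusted p = 0.013 with the set as a block, 0.37 without and 0.26 with the block and without the muscle-rich arrays). Of 16 microglial and macrophage markers 7 rose (list mean 7.03 to 7.76 in injured, 6.23 to 6.97 in sham mice), and of 12 neutrophil markers none passed (5.12 to 10.3 and 5.20 to 10.67 in the same order).

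**Figure D3:**
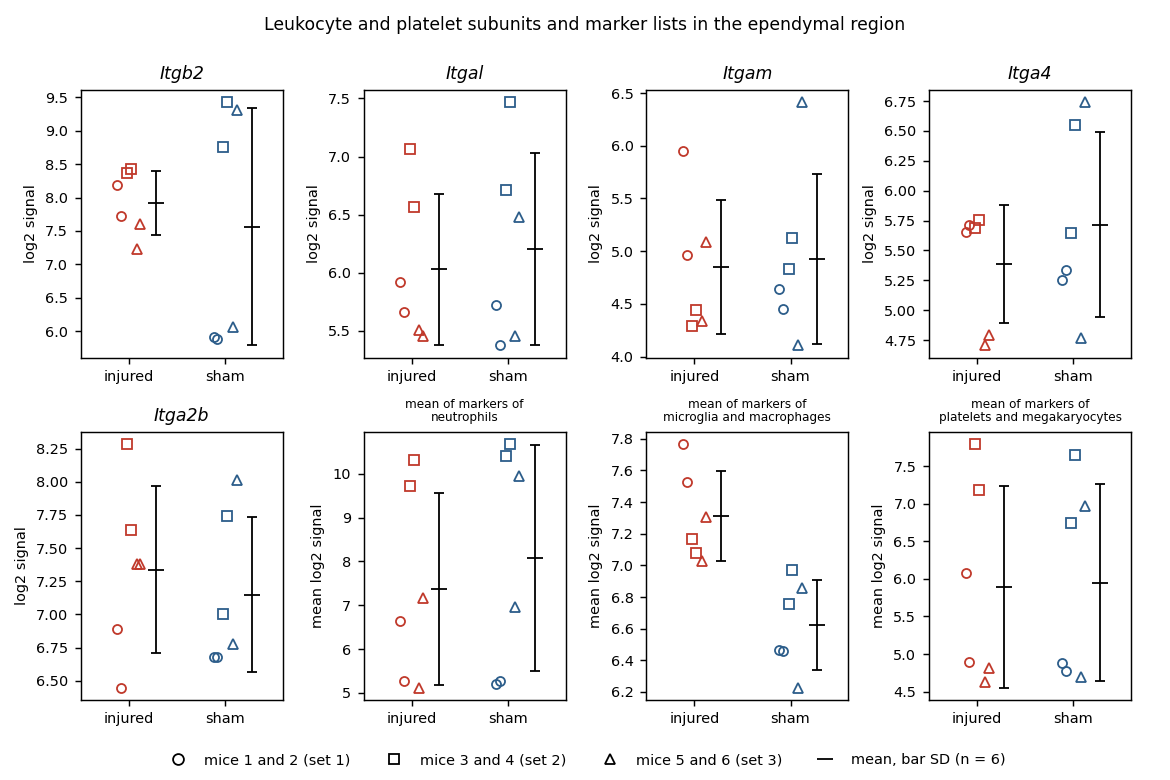
Log2 signal per array (y axes) of 5 leukocyte or platelet subunits and the mean log2 signal of 3 marker lists, injured mice on the left and sham mice on the right of each panel, symbols and bars as for the plot of 8 members. Itgb2 splits the sham mice into 3 at 5.89 to 6.06 and 3 at 8.76 to 9.43, and the neutrophil mean is high in the same 3 sham mice and in injured 3 and 4, whereas the microglial mean is higher in every injured mouse than in every sham mouse.

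In the plain fit the lists of genes around the integrins held 14 that rose and none that fell after injury, where 2.91% of all genes were higher and 1.87% lower. Of 34 genes of focal adhesions and integrin adaptors 3 rose and none fell: Ilk, integrin-linked kinase (0.62, adjusted p = 0.012), its partner Rsu1 (0.57, adjusted p = 0.023) and the actin crosslinker Flna (0.75, adjusted p = 0.041). Of 12 integrin-associated membrane proteins 4 rose, among them the caveola protein Cav1 (3.10, adjusted p = 1.1e-05), the tetraspanin Cd151, which binds laminin receptors (1.17, adjusted p = 7.6e-04), and Slc3a2 (0.73, adjusted p = 0.012). Of 23 other basement membrane genes and laminin receptors 3 rose, namely the type IV collagen chains Col4a5 (1.85, adjusted p = 0.0013) and Col4a6 (0.87, adjusted p = 0.0094) and the syndecan Sdc4 (0.99, adjusted p = 0.010). Of 34 other integrin ligands 3 rose, namely the Itgb2 ligand Icam1 (0.98, adjusted p = 0.010), Mfge8, a bridge between dying cells and Itgav (0.59, adjusted p = 0.021), and Tgfb3 (0.78, adjusted p = 0.043), and of 17 dystroglycan complex and glycosylation genes 1 rose, the sarcoglycan Sgcb (1.00, adjusted p = 0.032). The medians of the 5 lists in this order were 0.26, 0.52, 0.21, 0.05 and 0.07 log2, against 0.02 over all genes. With the set as a block genes of every list passed in both directions, where 12% of all genes were higher and 13.1% lower. The counts were then 12 higher and 1 lower (Pxn) among the focal adhesion genes, 8 and 1 (Cd82) among the membrane proteins, 9 and 3 (Frem1, Frem2 and Sdc2) among the basement membrane genes, 8 and 3 (Icam4, Adam23 and Thy1) among the ligands and 3 and 1 (Dmd) among the dystroglycan genes.

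Cell type markers moved over the same arrays. Beside them, 2.91% of all genes rose and 1.87% fell in the plain fit, and 12% and 13.1% with the set as a block. Of 12 ependymal markers 7 fell and 1, Cd24a, rose (9 and 1 with the set as a block), and 3 of 10 astrocyte markers rose (Gfap, Aldh1l1 and Aldoc, with 5 higher and 1 lower with the block). The mean of 10 neuronal markers was 6.92 to 9.15 in injured and 8.42 to 9.80 in sham mice, lower in the injured mice within each set, with a median difference of -1.13 log2 over the markers. Of these Syt1 fell in the plain fit, and 8 fell and none rose with the block. Of 8 oligodendrocyte precursor markers 1 rose (Olig1, list mean 5.29 to 6.66 in injured and 4.90 to 6.03 in sham mice), and 4 rose and Cspg5 fell with the block. The microglial list gave 8 higher and 1 lower with the block. Of the pericyte markers 1 of 9 rose (Kcnj8, list mean 5.48 to 6.35 in injured and 5.16 to 5.50 in sham mice) and of the fibroblast and meningeal markers 0 of 11. The part of any of these cell types in the rise of the members was not tested.

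In neurospheres without growth factors 14 of the 44 members rose and 7 fell relative to growing spheres, 31.8% and 15.9% of the members where 12.1% and 16.2% of all genes did. After the return of growth factors 6 members were higher and 6 lower than w/o EF (10.1% and 6.56% of all genes), and 13 were higher and 5 lower than with EF (7.86% and 7.43%). Medians over the members were 0.09, -0.07 and 0.09 log2 in the 3 comparisons and 0.0047, -0.02 and -0.02 over all genes. With the culture as a block 15 rose and 7 fell w/o EF (13.9% and 18.8% of all genes), 6 and 9 re EF against w/o EF (13% and 8.28%) and 13 and 5 re EF against with EF (9.4% and 10.0%). The conditions did not overlap for 15 members higher and 7 lower w/o EF (13.2% and 16.9% of all genes), 8 and 6 re EF against w/o EF (11.9% and 8.45%) and 13 and 5 re EF against with EF (10.8% and 11.6%). These comparisons share arrays, so their values are given side by side and not set against each other. The mean over 9 neural stem and progenitor markers was 7.71 to 8.16 on all 12 arrays, but single markers moved in opposite directions. W/o EF against with EF 4 rose (Msi1, Prom1, Vim and Sox2) and 4 fell (Egfr, Nes, Hes5 and Fabp7). Re EF against w/o EF 2 rose and 3 fell, and re EF against with EF 1 rose and 2 fell. Means of microglial, neutrophil and lymphocyte markers were 3.32 to 3.95. These means do not check the labels of the conditions.

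Among the member ligands Fn1 had the largest rise w/o EF. It had log2 signals in cultures 1 to 4 of 7.48, 7.45, 7.38 and 7.12 with EF, 10.12, 10.09, 10.92 and 10.95 w/o EF and 10.47, 10.45, 10.69 and 10.98 re EF. All plated cultures, with or without growth factors, lay above all growing spheres. The differences were 3.16 w/o EF against with EF (adjusted p = 3.5e-07), 0.13 re EF against w/o EF (0.78, 95% interval -0.32 to 0.58) and 3.29 re EF against with EF (1.3e-06). The nidogens, which tie laminin to type IV collagen, took different courses. Nid2 had 4.93, 5.27, 5.12 and 5.52 with EF, 7.03, 7.35, 7.57 and 7.81 w/o EF and 6.80, 6.80, 7.13 and 7.28 re EF. It rose by 2.23 w/o EF (adjusted p = 1.8e-06), was 1.79 above growing spheres re EF (4.7e-05) and differed by -0.44 between re EF and w/o EF (0.15, or 0.0095 with the culture as a block). Nid1 had 4.39, 4.35, 4.34 and 4.63 with EF, 4.07, 4.64, 5.07 and 5.16 w/o EF and 5.39, 6.02, 6.19 and 6.25 re EF. The re EF cultures lay above all others, by 1.23 over w/o EF (adjusted p = 0.0042) and 1.53 over with EF (0.0012), whereas the w/o EF cultures overlapped the growing spheres (0.31, 0.46).

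Perlecan, Hspg2, had 6.84, 7.00, 6.72 and 7.04 with EF, 7.60, 7.95, 8.10 and 8.39 w/o EF and 7.87, 8.16, 8.02 and 8.57 re EF. It was higher in every plated culture, by 1.11 w/o EF (adjusted p = 5.0e-04) and 1.25 re EF (5.8e-04), and the 2 plated conditions overlapped. Agrin was lowest on average re EF. Agrn had 7.96, 8.29, 7.99 and 8.23 with EF, 7.86, 8.22, 7.72 and 8.10 w/o EF and 7.20, 7.57, 7.21 and 7.90 re EF. It fell by 0.64 re EF relative to with EF (adjusted p = 0.026), a call lost without with EF culture 2 or 4 or re EF culture 1 or 3 (0.072 to 0.086), and differed by -0.50 between re EF and w/o EF (0.069, or 0.0054 with the culture as a block). Vtn stayed dim, with 3.41 to 3.60 with EF, 3.56 to 3.93 w/o EF and 3.44 to 3.74 re EF, and passed no test.

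Of 10 laminin chains 5 rose and 3 fell w/o EF, and the alpha and beta chains changed in opposite directions among themselves. Lama4, an alpha chain of vessel and nerve basement membranes, had 7.52, 7.55, 7.19 and 6.85 with EF, 4.23, 4.57, 4.70 and 4.69 w/o EF and 5.79, 6.26, 5.91 and 6.00 re EF. It fell by 2.73 w/o EF (adjusted p = 2.0e-07), rose by 1.44 re EF over w/o EF (1.1e-04) and was -1.29 re EF relative to growing spheres (3.3e-04), with no overlap between any 2 conditions. Lama1, which was dimmer, had 4.73, 4.84, 4.69 and 4.47 with EF, 3.99, 3.83, 3.79 and 3.97 w/o EF and 4.13, 4.09, 4.02 and 4.01 re EF, and fell by 0.79 w/o EF (adjusted p = 3.1e-05), with re EF at -0.62 relative to with EF (6.3e-04). Lama3 had 3.77, 3.97, 4.19 and 3.90 with EF, 5.22, 5.34, 5.49 and 5.37 w/o EF and 4.48, 4.09, 4.61 and 4.54 re EF. It rose by 1.40 w/o EF (adjusted p = 4.4e-06) and fell by 0.93 re EF relative to w/o EF (3.4e-04), and re EF it was 0.47 above with EF (0.031), where culture 2 overlapped the growing spheres and the call was lost in the fit of the 2 groups only and without with EF culture 1, 2 or 4 or re EF culture 1, 3 or 4 (0.061 to 0.098). Lama5, an alpha chain of most adult basement membranes, had 6.58, 6.61, 7.16 and 7.28 with EF, 7.50, 7.77, 7.62 and 8.03 w/o EF and 6.78, 7.07, 7.51 and 8.10 re EF. Its rise of 0.82 w/o EF (adjusted p = 0.040) did not pass with median centring (0.058) or without with EF culture 1 or 2 or w/o EF culture 2, 3 or 4 (0.064 to 0.11), and no other difference of it passed. Lama2, the alpha chain of muscle and Schwann cell basement membranes, was dim, with 4.03, 3.80, 3.86 and 3.88 with EF, 4.28, 4.27, 4.52 and 4.44 w/o EF and 4.02, 3.87, 4.28 and 4.09 re EF, and rose by 0.48 w/o EF (adjusted p = 0.0033). Re EF against w/o EF it differed by -0.31 (0.062, or 0.036 with the culture as a block).

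The beta chains Lamb2 and Lamb1 moved in opposite directions. Lamb2, the beta chain of mature synapses and kidney, had 6.47, 6.71, 6.57 and 6.61 with EF, 8.57, 8.67, 8.65 and 8.90 w/o EF and 7.25, 7.25, 7.52 and 8.24 re EF. It rose by 2.11 w/o EF (adjusted p = 3.8e-06), fell by 1.13 re EF relative to w/o EF (0.0013) and was 0.98 above with EF re EF (0.0042), culture 4 being the highest re EF. Lamb1, the beta chain more typical of developing tissue, had 7.72, 7.90, 7.81 and 7.77 with EF, 6.38, 6.25, 7.05 and 7.34 w/o EF and 7.89, 8.22, 7.85 and 8.10 re EF. It fell by 1.05 w/o EF (adjusted p = 0.0024), more in cultures 1 and 2 than in 3 and 4, and rose by 1.26 re EF over w/o EF (0.0013), where it overlapped growing spheres (0.21, 0.70). Lamc1 had 8.39, 8.39, 8.40 and 8.47 with EF, 8.87, 9.01, 9.03 and 9.33 w/o EF and 8.83, 8.97, 9.01 and 9.28 re EF, higher by 0.65 w/o EF (adjusted p = 9.4e-04) and by 0.61 re EF (0.0036) than with EF. Lamb3 and Lamc3, at 3.66 to 4.48 throughout, passed no test.

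**Figure D4:**
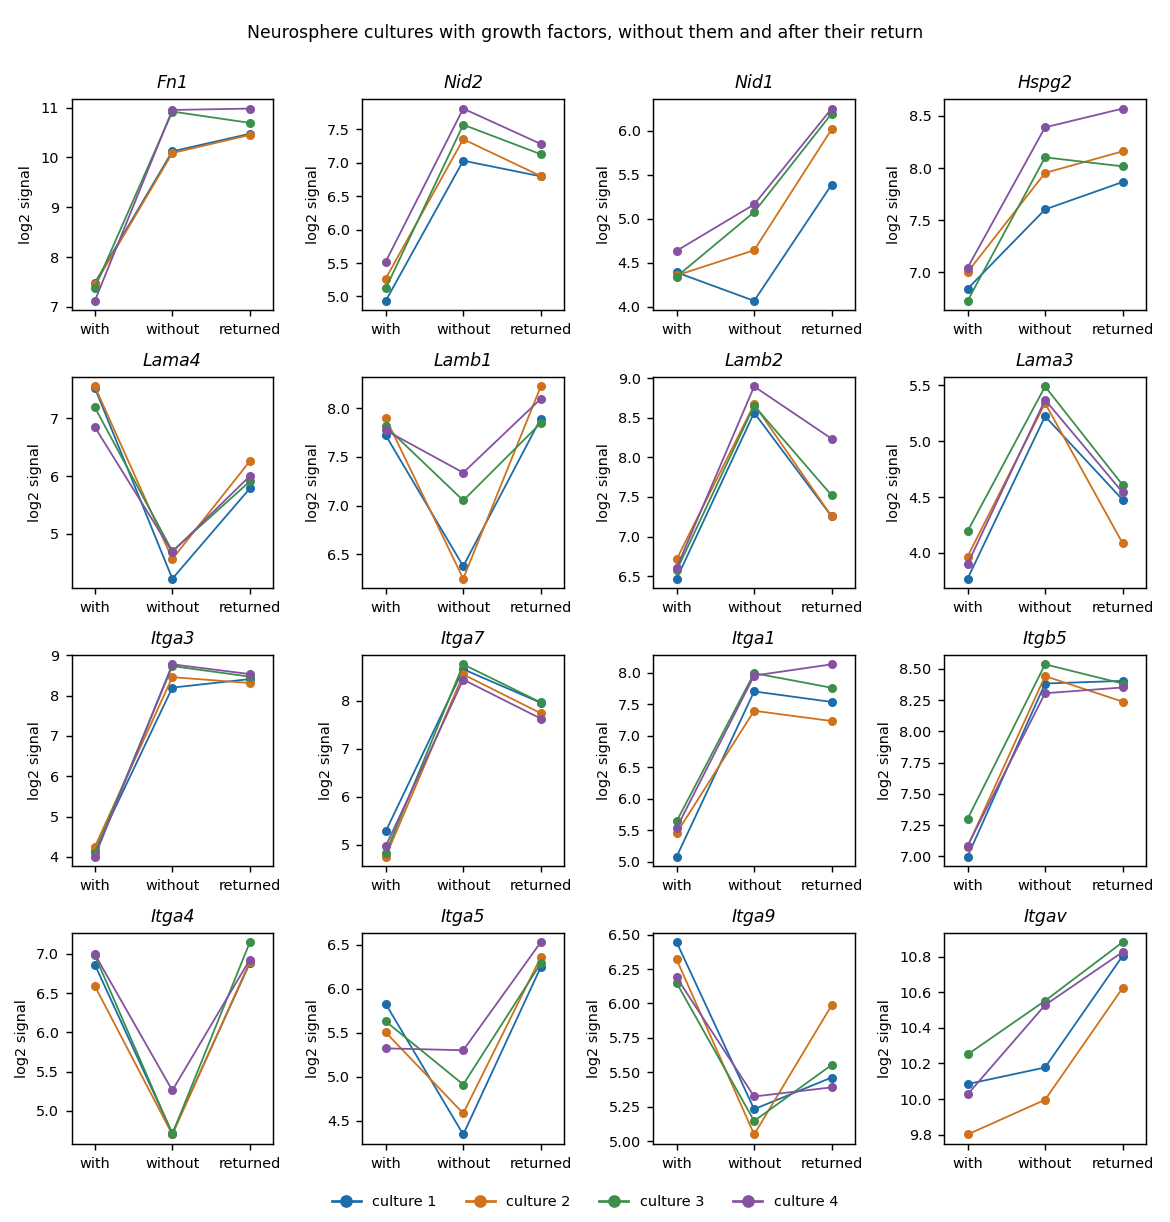
Log2 signal (y axes) of 16 members in each of 4 neurosphere cultures (lines) with EF, w/o EF and re EF (x axes). Fn1, Itga3, Itga7, Itga1, Itgb5 and Hspg2 are higher in every plated culture than in any growing sphere, Lama4 and Itga4 are lowest w/o EF in every culture, and Nid1 and Itgav are highest re EF in every culture.

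The largest changes among the receptors were in laminin-binding alpha subunits. Itga3, a partner of Itgb1 that binds laminins and associates with the tetraspanin Cd151, had 4.16, 4.25, 4.10 and 4.01 with EF, 8.20, 8.46, 8.73 and 8.77 w/o EF and 8.41, 8.31, 8.47 and 8.53 re EF. The plated cultures differed from the growing spheres in every case, with no overlap. The rise was 21.3-fold w/o EF (4.41 log2, standard error 0.12, adjusted p = 1.8e-09), and re EF stood 4.30 above with EF (5.8e-09) and -0.11 from w/o EF (0.66, 95% interval -0.37 to 0.15). Itga7, the laminin receptor subunit best known from muscle, had 5.28, 4.76, 4.83 and 4.97 with EF, 8.65, 8.54, 8.75 and 8.44 w/o EF and 7.95, 7.74, 7.96 and 7.63 re EF. It rose by 3.64 w/o EF (12.4-fold, adjusted p = 3.8e-09), fell by 0.78 re EF relative to w/o EF (0.0012) and was 2.86 above with EF re EF (1.2e-07). Itga6, a laminin receptor subunit of neural stem cells, passed a test only in the re EF comparisons. It had 8.11, 8.14, 8.11 and 8.35 with EF, 8.19, 8.03, 8.04 and 8.15 w/o EF and 7.48, 7.58, 7.72 and 7.74 re EF. The re EF cultures lay below all others. Itga6 fell by 0.48 re EF relative to w/o EF (adjusted p = 0.0029), and fell by 0.55 relative to with EF (0.0013). Itgb4, at 3.94 to 4.55 with EF, 4.13 to 4.31 w/o EF and 4.01 to 4.25 re EF, passed no test.

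Itga1, a collagen and laminin receptor subunit, had 5.08, 5.45, 5.64 and 5.54 with EF, 7.70, 7.40, 7.99 and 7.96 w/o EF and 7.54, 7.23, 7.76 and 8.13 re EF. It was higher in all plated cultures, by 2.34 w/o EF (adjusted p = 2.6e-06) and 2.24 re EF (1.7e-05). Itgb5 had 7.00, 7.08, 7.30 and 7.08 with EF, 8.38, 8.44, 8.54 and 8.30 w/o EF and 8.40, 8.24, 8.38 and 8.35 re EF. It rose by 1.30 w/o EF (adjusted p = 3.3e-07) and was 1.23 above with EF re EF (2.7e-06), with -0.07 between the plated conditions (0.68, 95% interval -0.26 to 0.11). Itgb8, the partner of Itgav that activates latent TGF-beta, had 9.46, 9.23, 9.61 and 9.29 with EF, 10.14, 9.88, 10.06 and 9.73 w/o EF and 9.45, 9.14, 9.52 and 9.13 re EF. It rose by 0.56 w/o EF (adjusted p = 0.0066), fell by 0.64 re EF relative to w/o EF (0.0048) and re EF overlapped with EF (-0.09, 0.84). Itgav had 10.08, 9.80, 10.25 and 10.03 with EF, 10.18, 10.00, 10.55 and 10.53 w/o EF and 10.80, 10.62, 10.88 and 10.82 re EF. Every re EF culture was above every other array, by 0.74 over with EF (adjusted p = 0.0034) and 0.47 over w/o EF (0.040), and the second of these did not pass in the fit of the 2 groups only (0.068), with quantile normalization (0.12), with the mean of both probe sets (0.41) or without w/o EF culture 1 or 2 or re EF culture 1, 3 or 4 (0.083 to 0.10). W/o EF it differed by 0.27 from with EF (0.20, or 0.045 with the culture as a block). Itgb1 was bright throughout, with 10.20, 10.29, 10.21 and 10.31 with EF, 9.96, 9.67, 10.33 and 10.52 w/o EF and 10.38, 10.60, 10.54 and 10.76 re EF, and its differences of -0.13, 0.45 and 0.32 passed no test (adjusted p = 0.66, 0.093 and 0.31).

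The 4 subunits that fell w/o EF were Itga4, Itga9, Itga5 and Itga8. Itga4, whose integrins bind VCAM and the alternatively spliced part of fibronectin, had 6.87, 6.59, 6.98 and 7.00 with EF, 4.71, 4.70, 4.71 and 5.26 w/o EF and 6.88, 6.90, 7.15 and 6.93 re EF. It fell by 2.01 w/o EF (adjusted p = 4.9e-07) and rose by 2.12 re EF over w/o EF (1.2e-06), where it overlapped growing spheres (0.11, 0.81). Itga9, a tenascin and osteopontin receptor subunit related to Itga4, had 6.45, 6.32, 6.15 and 6.19 with EF, 5.23, 5.05, 5.15 and 5.32 w/o EF and 5.46, 5.99, 5.55 and 5.39 re EF. It fell by 1.09 w/o EF (adjusted p = 4.4e-05) and was -0.68 re EF relative to with EF (0.0041), with a step of 0.41 re EF over w/o EF that missed the threshold (0.055). Itga5, the main fibronectin receptor subunit, had 5.83, 5.50, 5.63 and 5.32 with EF, 4.34, 4.58, 4.91 and 5.30 w/o EF and 6.24, 6.36, 6.29 and 6.53 re EF. It fell by 0.78 w/o EF (adjusted p = 0.0067), least in culture 4, and re EF it stood 1.57 above w/o EF (9.9e-05) and 0.78 above with EF (0.014). Itga8 was dim, with 4.35, 4.11, 4.69 and 4.63 with EF, 4.06, 3.65, 4.08 and 3.70 w/o EF and 3.97, 3.87, 4.38 and 4.37 re EF, and fell by 0.57 w/o EF (adjusted p = 0.026), a call lost without with EF culture 3 or 4 or w/o EF culture 2 or 4 (0.071 to 0.082).

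Dag1 had 9.73, 9.73, 9.71 and 9.55 with EF, 10.17, 9.92, 10.12 and 9.98 w/o EF and 9.87, 9.74, 9.72 and 9.78 re EF. It rose by 0.37 w/o EF (adjusted p = 0.0054) and fell by 0.27 re EF relative to w/o EF (0.047), and this second call was lost with median centring, in the fit of the 2 groups only and without w/o EF culture 1, 3 or 4 or any re EF culture (0.051 to 0.21). The 8 leukocyte subunits lay at 2.96 to 4.45 log2 on all arrays and passed no test in any comparison. The platelet subunits Itga2b and Itgb3, the collagen receptor subunits Itga2 and Itga11 and Itgb6 and Itgbl1 likewise passed none, and Itgbl1 was under the lower quartile on every array.

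**Figure D5:**
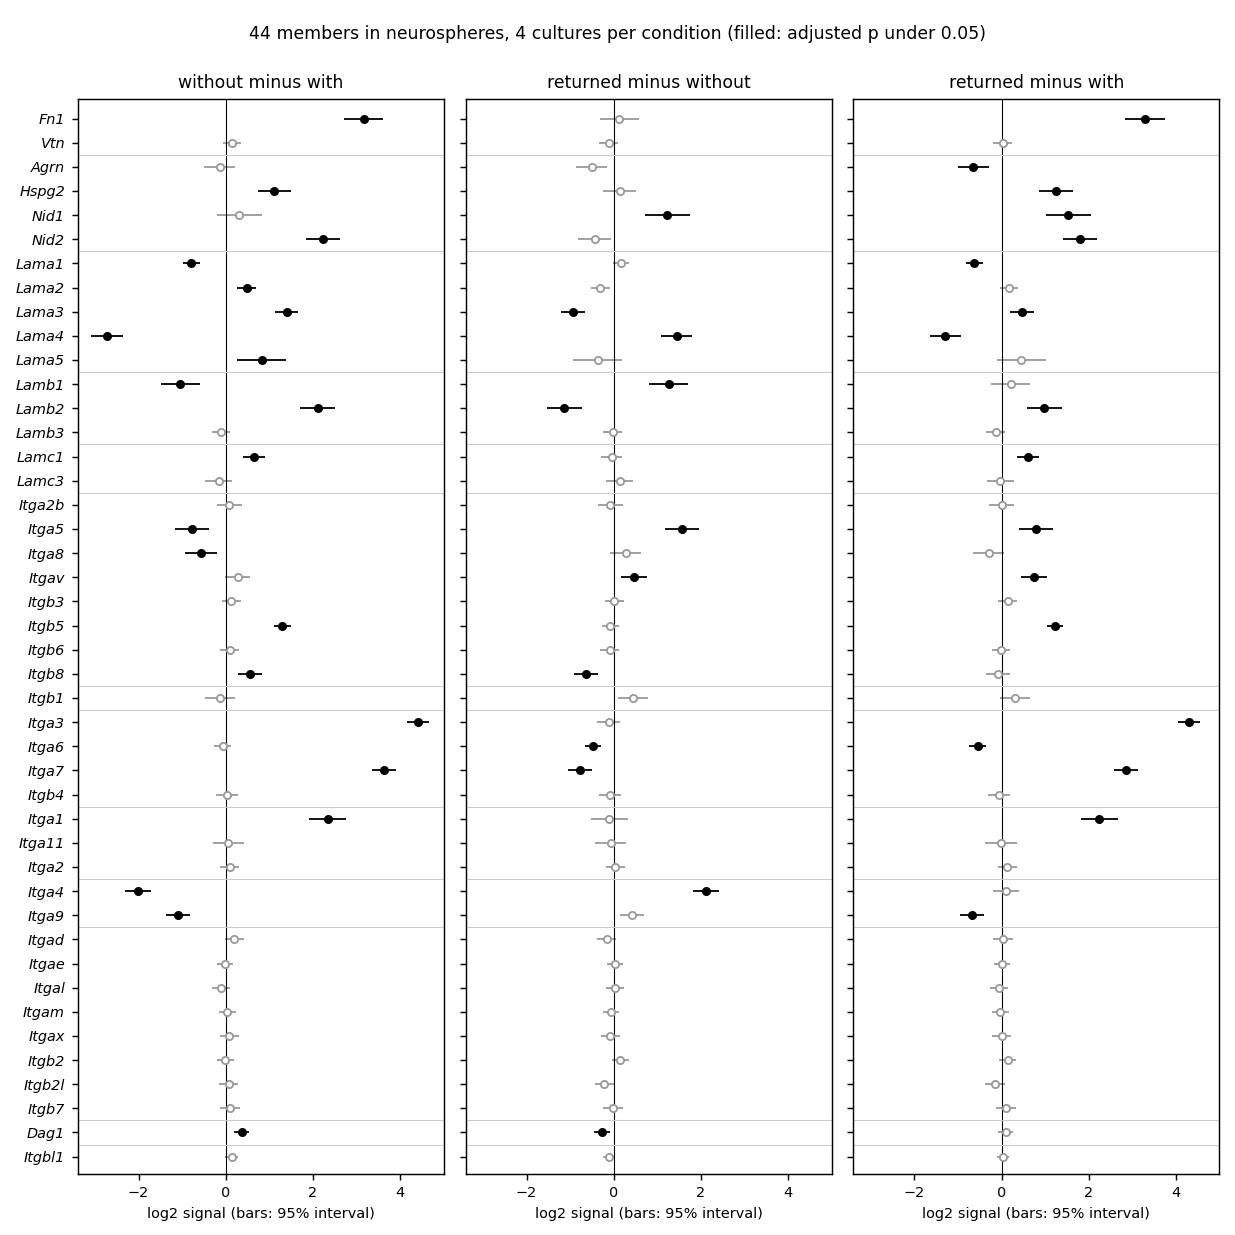
Differences in log2 signal (x axes) with 95% confidence intervals of the 44 members (y axis, grouped by role) in the 3 neurosphere comparisons, 4 cultures per condition, from limma without a block. Filled points passed an adjusted p of 0.05 and number 14 higher and 7 lower w/o EF against with EF, 6 and 6 re EF against w/o EF, and 13 and 5 re EF against with EF.

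The lists of genes around the integrins are read beside the shares of all genes. These were 12.1% higher and 16.2% lower w/o EF, and 10.1% and 6.56% re EF against w/o EF. Of 35 genes of focal adhesions and integrin adaptors 16 rose and 5 fell w/o EF. The actin linkers Actn1 (2.74, adjusted p = 9.6e-09) and Flna (1.71, adjusted p = 3.8e-07) and the adaptor Dab2 (1.68, adjusted p = 4.3e-07) were among those that rose. The kinases Fyn (-1.45, adjusted p = 7.1e-07) and Src (-0.42, adjusted p = 0.0037) and the adaptor Lims1 (-0.46, adjusted p = 0.0046) were among those that fell. Re EF against w/o EF 6 rose, led by vinculin, Vcl (0.61, adjusted p = 6.0e-04), and 2 fell, Tln2 (-0.83, adjusted p = 4.6e-04) and Tns3 (-0.58, adjusted p = 0.020). Of 35 other integrin ligands 8 rose and 4 fell w/o EF. Thbs1, thrombospondin 1, rose by 5.86 (adjusted p = 7.1e-09), Jam2 by 1.31 (7.2e-07) and the Itga8 ligand nephronectin, Npnt, by 1.39 (1.6e-06), whereas tenascin C, Edil3 and Mfge8 fell, the last ones with -1.30 and -0.87 (4.1e-06 and 8.3e-05). Re EF against w/o EF tenascin C and Edil3 rose, Edil3 by 0.91 (2.1e-04), as did the Itga4 ligand Vcam1 (0.64, adjusted p = 0.0080), and Thbs1 differed by -1.56 (5.2e-04).

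Of 24 other basement membrane genes and laminin receptors 11 rose and 3 fell w/o EF, where 12.1% of all genes rose and 16.2% fell. The syndecan Sdc2 (2.16, adjusted p = 2.1e-07), Frem2 (2.70, adjusted p = 2.2e-07) and the collagen-binding glycoprotein Sparc (1.28, adjusted p = 1.4e-06) rose, and the syndecan Sdc3 (-1.62, adjusted p = 2.6e-06), Smoc1 (-1.85, adjusted p = 1.6e-05) and Rpsa, a ribosomal protein also described as a laminin receptor (-1.18, adjusted p = 7.3e-05), fell. Re EF against w/o EF Col18a1 (1.27, adjusted p = 6.7e-05), Sdc3 (1.24, adjusted p = 7.0e-05) and Smoc1 (1.37, adjusted p = 4.7e-04) were among 4 that rose, and Frem2 (-2.17, adjusted p = 4.3e-06), Col4a5 (-0.69, adjusted p = 0.0097) and Bcam (-0.76, adjusted p = 0.026) fell. Of 13 integrin-associated membrane proteins 4 rose w/o EF, among them Cd151 (1.41, adjusted p = 1.4e-06), Slc3a2 (1.44, adjusted p = 9.1e-06) and Cd63 (1.32, adjusted p = 1.7e-05), and re EF against w/o EF the urokinase receptor Plaur (1.24, adjusted p = 5.6e-05), Cav1 (1.37, adjusted p = 2.5e-04) and Cd44 (0.73, adjusted p = 0.0095) were among 4 that rose and Cd82 (-0.48, adjusted p = 0.042) fell. Of 18 genes of the dystroglycan complex and its glycosylation 8 rose w/o EF, with dystrobrevin, Dtna (1.45, adjusted p = 3.7e-06), utrophin, Utrn (1.00, adjusted p = 5.2e-06), and dystrophin, Dmd (0.93, adjusted p = 9.7e-06), first by p, and the mannosyltransferases Pomt1 and Pomt2 fell (-0.53 and -0.41, adjusted p = 0.0038 and 0.011). Re EF against w/o EF 3 of them rose, the glycosyltransferases Pomgnt1 (0.29, adjusted p = 0.020) and Pomgnt2 (0.34, adjusted p = 0.032) and the syntrophin Sntb2 (0.44, adjusted p = 0.042), and 4 fell, the sarcoglycans Sgcb (-0.62, adjusted p = 1.8e-04) and Sgca (-0.32, adjusted p = 0.045), Dmd (-0.63, adjusted p = 5.8e-04) and Dtna (-0.48, adjusted p = 0.026). The median differences w/o EF of these 5 lists, focal adhesion genes and ligands first, were 0.33, 0.06, 0.37, 0.11 and 0.18 log2, against 0.0047 over all genes. Re EF against with EF they were 0.26, 0.07, 0.31, 0.43 and 0.21, with 13, 9, 9, 7 and 4 genes higher and 3, 2, 0, 0 and 0 lower. In that comparison 7.86% of all genes were higher and 7.43% lower.

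Cell type markers moved over the same cultures. Beside them, 12.1% of all genes rose and 16.2% fell w/o EF, and 10.1% and 6.56% re EF against w/o EF. W/o EF 5 of 10 astrocyte markers rose and 1 fell (list mean 7.52 to 7.81 w/o EF, 6.43 to 6.57 with EF), 5 of 8 oligodendrocyte precursor markers fell and none rose (5.99 to 6.47 and 6.81 to 7.05), 7 of 12 ependymal markers rose (5.50 to 5.55 and 4.53 to 4.69), and 3 of 12 pericyte and smooth muscle markers rose (Acta2, Tagln and Cnn1) with Cspg4 falling. Re EF against w/o EF 5 astrocyte and 6 ependymal markers fell, 1 astrocyte marker (Gli3) rose and 2 precursor markers rose (Olig1 and Olig2). Endothelial list means were 3.81 to 3.98 with EF, 4.29 to 4.47 w/o EF and 4.34 to 4.47 re EF, and fibroblast means 3.75 to 3.85, 4.29 to 4.43 and 4.09 to 4.23. Few genes carried these means. W/o EF 3 of 14 endothelial markers rose (Kdr, Slc2a1 and Slco1a4) and Eng fell, with a median difference of -0.07 log2. Of 11 fibroblast and meningeal markers 1 rose (Ogn), with a median of 0.11. Re EF against with EF 3 endothelial markers and 1 fibroblast marker rose, where 7.86% of all genes did. The part of changing cell types in the values of the members was not tested.

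Across the 2 array types, whose samples are different in the labels, 38 members can be read side by side as differences. Fn1 rose in both settings, by 2.92 log2 in injured over sham mice and 3.16 w/o EF over with EF. Itgav rose by 1.31 in injured mice, and in neurospheres its largest difference was 0.74, re EF over with EF. Agrn rose by 0.92 in injured mice and fell by 0.64 re EF relative to with EF. That fall was lost in some fits without a single culture, and w/o EF against with EF Agrn did not pass. Vtn and Itgb4 rose in injured mice and passed no neurosphere test. In the plain fit without the muscle-rich arrays both calls were lost. With the set as a block and without those arrays Itgb4 passed, whereas Vtn did not (adjusted p = 0.17). Itga3 and Itga7, the subunits that rose most w/o EF, had differences of 0.20 and 0.12 in injured over sham mice (95% intervals -0.16 to 0.55 and -0.18 to 0.43). Itga7 was under the lower quartile of its array on all 12 ependymal arrays, so the size of its difference is uncertain.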

How the data were processed

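RNA of 12 ependymal regions and 12 neurosphere cultures was measured on Affymetrix expression arrays of 2 types. The authors deposited log2 RMA values, background-corrected, normalized between arrays and summarised to 1 value per probe set. Expression Console 1.2.1 stands in the submitters' processing notes, and the 2 tables were normalized apart. No genome build was given in the sources used. The labels give passage 1 and 3 days without growth factors, the methods 3 passages and 4 days. Gene names come from the annotation tables of the array types. A member was read from the probe set of highest mean signal among those naming 1 gene (75 and 46 member probe sets), and control probe sets (104 and 190) were left out.

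Groups were compared with limma 3.58.1 (lmFit, eBayes) in R 4.3.3 over all 45037 and 41155 remaining probe sets, two-sided, with p-values adjusted by Benjamini-Hochberg and called under 0.05. The neurosphere conditions shared a fit. The fit was tested on simulated data with independent noise on each array. The simulation held no sets of arrays and no shared mice, so it does not cover these features of the data. Figures used matplotlib 3.10.9. The number of arrays limits the precision. No 2 arrays were identical. The labels number mice, and p-values set differences against the spread between these samples. The plain neurosphere fit treated all arrays as independent, although cultures of the same number share a mouse by the labels. Members with calls, with or without a block, are given array by array, other list genes by the smallest p (up to 3 per direction). Itgb2, Itgal, Itga4, Itgam, Itga2b and Itgb3 were described for the ependymal arrays after their values had been seen. The members and lists were chosen with earlier results of these data known. Alternatives were median centring, quantile normalization, a filter on low signals, eBayes with trend and robust, the mean of a gene's probe sets, leaving out each array, the replicate number as a block, a fit of 2 groups only, and for ependymal arrays a block by set and each set alone. Leaving out the 4 muscle-rich arrays was added after the values had been seen.

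Neurospheres of the same number come from the same mouse by the labels, and their deviations correlated at 0.31 to 0.39 (w/o EF and with EF), 0.27 to 0.36 (re EF and w/o EF) and 0.16 to 0.31 (re EF and with EF). Injured and sham mice of the same number are different animals.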

Additional observations from a re-analysis of the deposited data

Results flagged for a closer look

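Single arrays that stood far from the rest of their group were sought by Dixon's criterion for the members named with a test, in 107 groups of 4 or 6 arrays, and 6 were found, about as many as the 1 in 20 that chance gives. In the ependymal region Lamc1 was 7.98 log2 in injured 3, against 7.16 to 7.31 in the other injured mice. In neurospheres Itga4 was 7.15 in re EF culture 3, against 6.88 to 6.93 in the other re EF cultures, and 5.26 in w/o EF culture 4, against 4.70 to 4.71 in the other w/o EF cultures. The other 3 were in with EF culture 4, where Dag1 was 9.55 (others 9.71 to 9.73), Itga6 8.35 (others 8.11 to 8.14) and Nid1 4.63 (others 4.34 to 4.39).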

How the results depend on the processing

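In injured against sham mice 5 members rose in the plain fit and 13 with the set as a block, which also called 1 lower. Within the sets, of 4 arrays each, 9, 6 and 0 members rose, where 1235, 420 and 57 of 17097 genes did. In set 3 few genes passed at all. With the block and without the muscle-rich arrays 9 members rose, where 10.4% of all genes did. The replicate number as a block, which joins different mice, gave 14 higher and 0 lower. Same-numbered deviations correlated at 0.42 to 0.79, and at -0.57 to 0.11 once set means were removed. Leaving out single arrays gave 4 to 5 higher and 0 lower. Itgb2 was -0.69 and -0.27 within sets 2 and 3, against 0.36 in all, and the cause was not tested. In neurospheres leaving out single cultures gave 13 to 14 higher and 6 to 7 lower w/o EF against with EF, 5 to 7 and 5 to 6 re EF against w/o EF, and 12 to 13 and 4 to 5 re EF against with EF, and the other alternatives 13 to 15 and 7, 5 to 8 and 5 to 9, and 12 to 13 and 5. The culture as a block gave 15 and 7, 6 and 9, and 13 and 5, and beyond the calls named for Itgav, Agrn, Lama2 and Nid2 changed none. With median centring the genes called re EF against w/o EF were 2912 higher and 1028 lower, against 2246 and 1456 without. Dim members near the lower quartile, such as Itga5 and Itga7 in the ependymal region, have little room to show a fall.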
